A study of Mus musculus with 6 samples.

Results

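The corticotropin-releasing factor (CRF) family and the corticosteroid receptors were examined in bulk mRNA sequencing of mouse nucleus accumbens core, a reward-related region at the base of the striatum. The 10 genes were chosen by symbol, namely the ligands Crh, Ucn and Ucn3, the receptors Crhr1 and Crhr2, the binding protein gene Crhbp, the corticosteroid receptor genes Nr3c1 and Nr3c2, the receptor co-chaperone gene Fkbp5, and the steroid enzyme gene Hsd11b1. All 10 were found among the 24532 genes of the deposited table, and 9 had enough reads to be tested. There were 3 libraries titled ethanol and 3 titled control, all from wild-type male mice described as adolescent, with postnatal days 35 to 55 given. Per the labels, every group went through contextual fear conditioning, extinction trials in the same context and 27 days of drinking on alternate days, and tissue was collected 24 h after the drinking ended. Ethanol was injected intraperitoneally 6 times within 6 h, as a 20% v/v solution, at 1.8 g/kg first and 1.2 g/kg in each later injection. The treatment field named ethanol exposure for control libraries too, so the groups rest on titles, descriptions and column names, and what control mice received by injection was not given. The labels do not tie each library to a separate mouse. The p-values therefore measure only how far these libraries differ from each other, which may be technical spread. Ethanol drinking is shared by both groups per the labels and was not compared.

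CRF is the peptide with which the hypothalamus starts the hormonal stress response, and it also acts as a local transmitter in the forebrain. The urocortins are related peptides, and CRF and urocortins act on a pair of G protein-coupled receptors while a secreted binding protein holds back CRF and urocortin. Corticosterone, the hormone released at the end of that response in mice, acts through the glucocorticoid receptor (Nr3c1) and the mineralocorticoid receptor (Nr3c2), which are ligand-activated transcription factors held ready by chaperones. In rodents, blocking CRF receptor signalling is known to lower heavy ethanol drinking.

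Promoters of 4 of these genes are shown. Ucn was chosen because it was listed at 0 in 1 group. Fkbp5, Nr3c2 and Crhr2 were chosen for the smallest unadjusted edgeR p among the 9 tested of the 10 genes. In the RefSeq promoter windows of the GRCm38.p6 build, which hold 250 bases before and 50 bases after a gene's start, 8 of the 10 genes were matched, all but Crh and Nr3c1. Capitals mark matches on either strand to TGACGTCA (the cAMP response element), AGAACA (1 arm of a glucocorticoid response element), CACGTG (an E-box), GGGCGG (a GC box) or TATAA, and no matches overlapped in these windows. The windows lie at chr5:31138846-31139145 on the minus strand (Ucn), chr6:55132967-55133266 on the minus strand (Crhr2, the upstream start), chr8:76902080-76902379 on the plus strand (Nr3c2) and chr17:28486100-28486399 on the minus strand (Fkbp5).
Ucn: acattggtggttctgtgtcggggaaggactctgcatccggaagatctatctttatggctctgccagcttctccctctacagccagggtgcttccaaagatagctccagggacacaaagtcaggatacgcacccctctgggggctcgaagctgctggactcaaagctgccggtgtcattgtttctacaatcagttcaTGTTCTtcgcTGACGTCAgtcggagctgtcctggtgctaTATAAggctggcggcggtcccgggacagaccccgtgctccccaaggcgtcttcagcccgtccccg
Crhr2: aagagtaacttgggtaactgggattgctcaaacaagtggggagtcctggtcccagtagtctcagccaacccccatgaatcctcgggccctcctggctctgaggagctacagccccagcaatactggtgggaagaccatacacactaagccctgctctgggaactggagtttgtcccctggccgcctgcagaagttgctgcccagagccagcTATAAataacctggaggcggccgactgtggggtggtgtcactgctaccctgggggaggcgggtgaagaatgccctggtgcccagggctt
Nr3c2: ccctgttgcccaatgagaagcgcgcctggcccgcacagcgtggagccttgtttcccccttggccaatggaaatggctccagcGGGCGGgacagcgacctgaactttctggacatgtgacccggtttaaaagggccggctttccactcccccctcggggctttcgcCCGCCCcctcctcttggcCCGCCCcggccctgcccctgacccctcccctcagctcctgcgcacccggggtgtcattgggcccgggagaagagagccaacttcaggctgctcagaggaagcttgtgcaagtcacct
Fkbp5: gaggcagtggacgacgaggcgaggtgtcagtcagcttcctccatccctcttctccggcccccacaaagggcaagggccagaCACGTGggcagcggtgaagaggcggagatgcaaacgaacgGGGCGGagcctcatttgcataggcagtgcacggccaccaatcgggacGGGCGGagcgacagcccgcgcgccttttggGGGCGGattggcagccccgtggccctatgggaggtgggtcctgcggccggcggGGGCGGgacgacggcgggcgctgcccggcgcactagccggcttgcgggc

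Among the 8 windows the cAMP response element occurred in that of Ucn, and 1.79% of all 32851 promoter windows held it. The Ucn window also held the hexamer AGAACA, which 19.0% of all windows had. The E-box occurred in the Fkbp5 window (7.15% of all windows), and the GC box in those of Nr3c2, Crhr1 and Fkbp5 (35.7% of all windows). The letters TATAA were in the windows of Ucn, Crhr2 and Crhbp, against 24.9% of all windows. The full palindromic element, AGAACA followed by any 3 bases and TGTTCT, was in none of the 8 windows and in 3 of all windows. The known glucocorticoid response elements of Fkbp5 lie in its introns, outside the window shown. These matches describe letters and were not tested as binding sites.

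The libraries held 35898026 to 67399599 estimated reads. Floors and intervals from read numbers cover counting error only. In CPM (counts scaled to library size after TMM normalisation), 3 reads stood for 0.0478 to 0.0820 CPM. All 11 marker genes of medium spiny neurons, the output neurons of the striatum, were tested. Their summed level was 2124 to 3966 CPM in ethanol libraries and 1932 to 2329 CPM in control libraries, so markers of the labelled tissue were present in every library. Of the 11, 10 had higher and 1 lower values in ethanol, with a median log2 fold change of 0.44. Over all 15774 tested genes, 8312 had higher values and the median was 0.02. In 3 of the 11, all ethanol libraries lay above all controls, against 9.35% of all tested genes. None passed an edgeR adjusted p of 0.05. The part of these markers in the values of the 10 genes was not tested. Markers of hypothalamus and bed nucleus summed to 581 to 782 CPM in ethanol libraries and 859 to 1181 CPM in control libraries. Without Pmch, the leading gene, the other 6 summed to 337 to 390 CPM in ethanol and 295 to 417 CPM in control libraries. Hcrt alone held 281 to 361 CPM in ethanol and 262 to 376 CPM in control libraries, so that sum says little about the rest. Of the 7 markers, 6 were tested, of which 5 had higher values in ethanol and Pmch lower. Their part in Crh, Ucn, Ucn3, Avp and Oxt values was not tested. Control 2 had reads for 15924 genes, against 17096 to 17707 in the other 5 libraries.

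**Figure D1:**
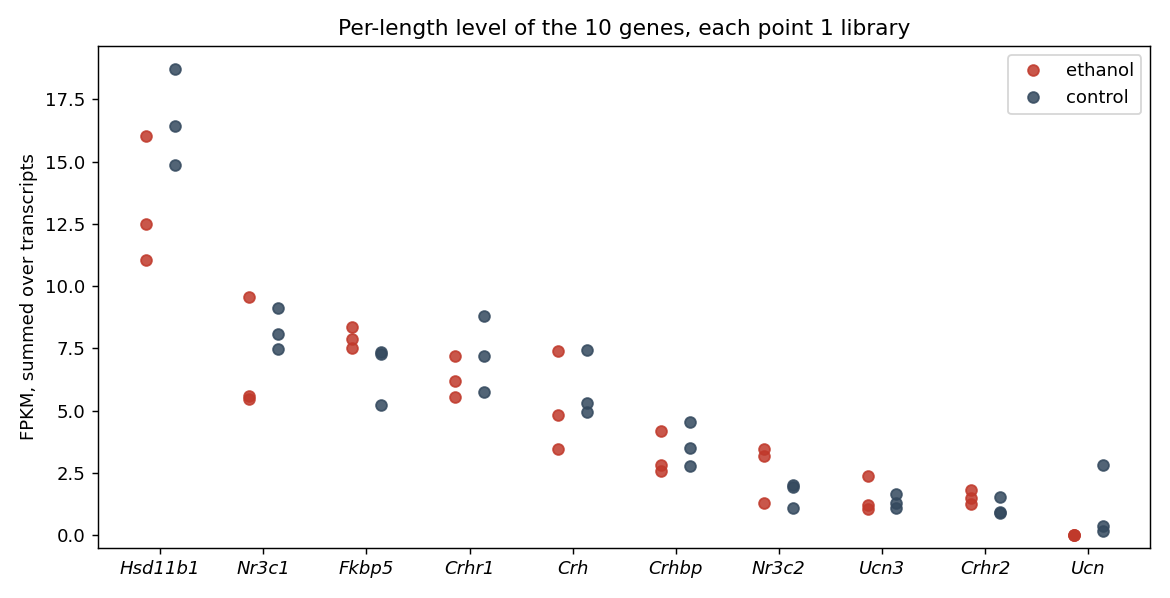
Per-length level of the 10 genes as FPKM (fragments normalised to transcript length and library size) summed over a gene's transcripts, with ethanol libraries in red left of control libraries in blue and 1 point per library. Hsd11b1 lies above the other genes at 11.05 to 18.7 FPKM, and the ranges of neighbouring genes overlap from Nr3c1 down to Ucn.

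Per length, Hsd11b1 was the most abundant of the 10 genes, with a mean of 14.9 FPKM over the 6 libraries and a range of 11.05 to 18.7 FPKM. It encodes the dehydrogenase that regenerates active corticosterone inside cells. Nr3c1 followed at a mean of 7.55 FPKM (5.45 to 9.56), Fkbp5 at 7.27 (5.23 to 8.37), Crhr1 at 6.78 (5.54 to 8.80) and Crh at 5.57 (3.47 to 7.45). Lower levels were those of Crhbp at 3.40 FPKM (2.60 to 4.56), Nr3c2 at 2.16 (1.08 to 3.46), Ucn3 at 1.44 (1.05 to 2.36), Crhr2 at 1.32 (0.895 to 1.82) and Ucn at 0.56 (0 to 2.82). Hsd11b1 was the only one whose range was clear of its neighbour's, and every later pair in this order overlapped. Hsd11b1 exceeded 77.3% to 84.6% of all genes in the table by FPKM in a library, and Crhr2 exceeded 47.1% to 53.6%. The paralog Ucn2, encoding urocortin 2, had at most 0.0487 CPM in any library, near the level of 3 reads, and was not tested.

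**Figure D2:**
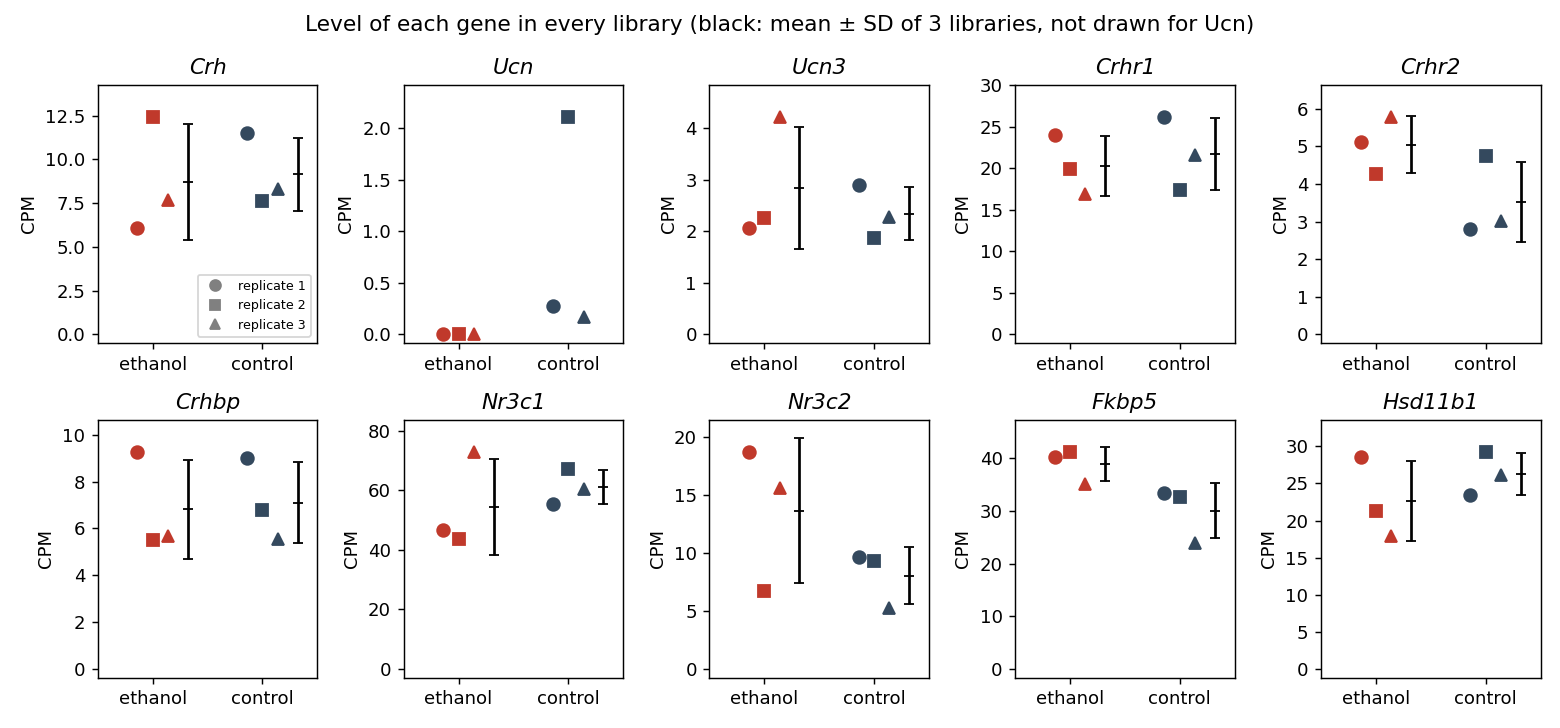
Level in CPM of each gene in every library, ethanol left in red and control right in blue, with a marker shape per replicate number and black bars for mean ± SD of 3 libraries (not drawn for Ucn). The groups are apart for Fkbp5 and for Ucn, which was listed at 0 in the 3 ethanol libraries, and overlap for the other 8 genes.

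The first question was whether the peptides differed between ethanol and control. Crh, the gene of CRF itself, had 6.05, 12.4 and 7.65 CPM in ethanol libraries, against 11.5, 7.59 and 8.31 CPM in control libraries. The highest and the lowest library both belonged to ethanol, and the groups overlapped. Means were 8.70 ± 3.30 CPM in ethanol and 9.14 ± 2.10 CPM in control (SD, n = 3 each), and the fitted log2 fold change was -0.08 (SE 0.30, edgeR adjusted p = 0.94) over a 95% interval of -0.74 to 0.59. Its sign turned without control 1 (0.13), ethanol 1 (0.13) or ethanol 3 (0.01). Crh lies at chr3:19693401-19695396 in mm10, where RefSeq has an overlapping long noncoding RNA gene, Gm42189. Whether they share exon bases was not checked. Reads from any shared bases cannot be told apart where counting ignores strand. In bulk tissue, fewer cells of a type and less RNA per cell cannot be told apart.

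Ucn3, the gene of urocortin 3, a peptide selective for CRF receptor 2, had 2.06, 2.26 and 4.21 CPM in ethanol libraries, against 2.90, 1.87 and 2.27 CPM in control libraries. Ethanol 3 stood above the rest and the other 5 libraries mixed. The log2 fold change was 0.27 (SE 0.36, edgeR adjusted p = 0.81) with a 95% interval of -0.54 to 1.08, and its sign turned without ethanol 3 (-0.12).

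Ucn, the gene of urocortin, which binds both CRF receptors, was listed at 0 reads in each of the 3 ethanol libraries, and at 16, 81 and 6 reads in control 1, control 2 and control 3. These are 0.278, 2.11 and 0.164 CPM in control, so control 2 held 78.6% of the control reads. Against a floor of 3 reads per library (0.0478 to 0.0805 CPM), ethanol was at least 12.6-fold lower than the control mean of 0.849 CPM, and at least 3.29-fold lower without control 2. Ucn did not pass the filter on low counts. With that filter dropped, edgeR gave an unadjusted p of 0.00159 and an adjusted p of 0.44, and limma-voom an adjusted p of 0.40, while DESeq2 gave an adjusted p of 0.00374. Over the edgeR, limma-voom and DESeq2 alternatives without the filter the adjusted p ran from 0.00374 to 0.91. Reads in all 3 control libraries and none in ethanol were found for 7 of 18767 genes with a read (0.0373%), and the opposite pattern for 33 genes (0.176%). Since these are estimated counts, a listed 0 may also be an estimate that assigned no read.

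The receptors and the binding protein were compared next. Crhr1, the main CRF receptor of the forebrain, had 24.0, 19.9 and 16.9 CPM in ethanol libraries, against 26.1, 17.4 and 21.5 CPM in control libraries. The groups overlapped, with a log2 fold change of -0.10 (SE 0.21, edgeR adjusted p = 0.89) and a 95% interval of -0.56 to 0.37, and the sign turned without control 1 (0.060) or ethanol 3 (0.02). Crhbp, the gene of the secreted CRF-binding protein, had 9.26, 5.53 and 5.69 CPM in ethanol libraries, against 8.99, 6.78 and 5.55 CPM in control libraries. Each group had 1 library near 9 CPM, replicate 1 in both, and the log2 fold change was -0.06 (SE 0.28, edgeR adjusted p = 0.95; 95% interval -0.70 to 0.58). It turned positive without control 1 (0.15), ethanol 2 (0.06) or ethanol 3 (0.06). The summed level of 10 cortical glutamatergic neuron markers was 159 to 190 CPM in ethanol libraries and 189 to 441 CPM in control libraries, highest in control 1, and of the 10 only Emx1 was at 0 in any library, control 2. Without Slc17a7, the leading gene, the other 9 summed to 134 to 150 CPM in ethanol libraries and 118 to 153 CPM in control libraries. Lamp5 was the largest part of that sum, at 57.6 to 110 CPM in ethanol and 49.2 to 65.3 CPM in control libraries. Of the 9 cortical markers tested, 7 had lower and 2 higher values in ethanol, and their part in Crh, Crhr1 and Crhbp values was not tested.

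Crhr2, the receptor preferred by urocortin 3, had 5.11, 4.26 and 5.77 CPM in ethanol libraries, against 2.81, 4.76 and 3.01 CPM in control libraries. Ethanol 1 and ethanol 3 lay above all controls, while ethanol 2 lay below control 2. Means were 5.05 ± 0.76 CPM in ethanol and 3.53 ± 1.07 CPM in control (SD, n = 3 each), and the fitted log2 fold change was 0.52 (SE 0.29, edgeR adjusted p = 0.53) with a 95% interval of -0.12 to 1.16. It was 0.80 without control 2 (edgeR adjusted p = 0.62), and 0.38 to 0.62 when any other library was left out. Choroid plexus markers summed to 20.3 to 24.7 CPM in ethanol libraries and 18.4 to 421 CPM in control libraries, highest in control 3. Without Ttr, the leading gene, the other 7 summed to 18.3 to 23.7 CPM in ethanol and 16.2 to 26.7 CPM in control libraries. Of these 8 markers, 3 had higher and 5 lower values in ethanol, and their part in Crhr2 was not tested.

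**Figure D3:**
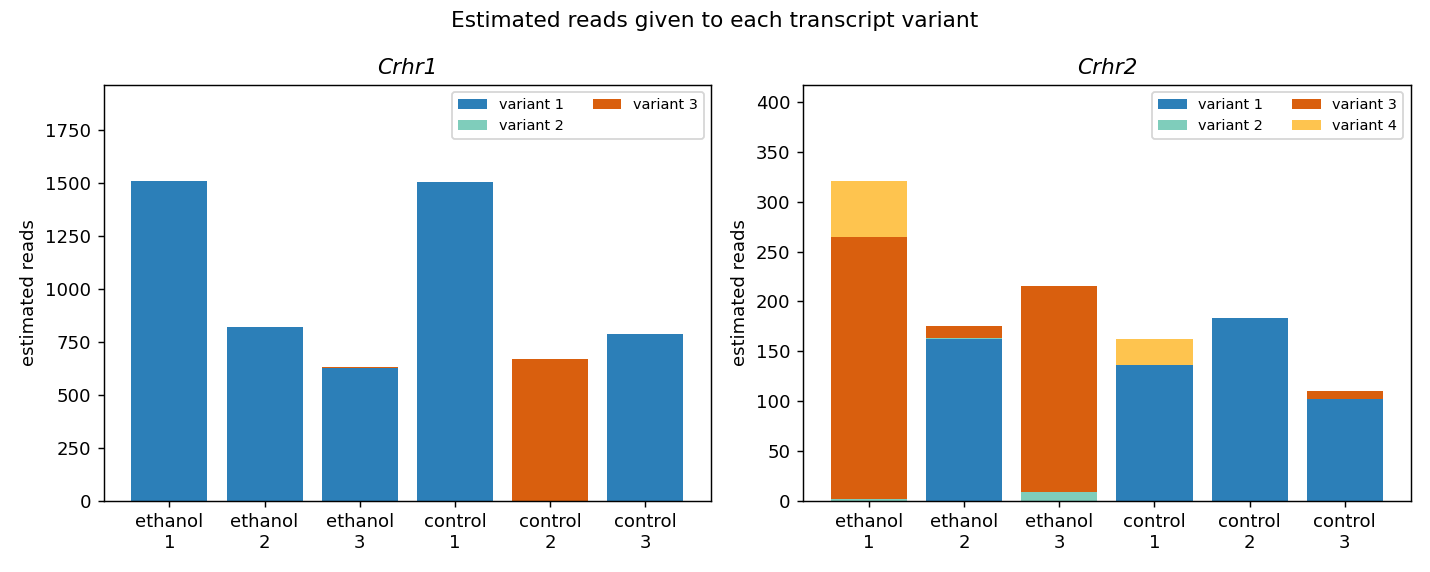
Estimated reads that the deposited table gives to each transcript variant of Crhr1 (left) and Crhr2 (right), with 1 stacked bar per library and ethanol left of control. Crhr1 reads go to variant 3 in control 2 and to variant 1 elsewhere, and Crhr2 reads go to variants 3 and 4 in ethanol 1 and ethanol 3 and mostly to variant 1 in the other 4 libraries.

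The leading transcript differed among libraries for both receptor genes. For Crhr1, at chr11:104132781-104175523, control 2 had 669 of 669 estimated reads on variant 3. The other 5 libraries had 0 to 2 reads there and 627 to 1507 on variant 1. The wider RefSeq span of Crhr1, chr11:104130463-104175523, overlaps the noncoding gene Gm35469. Variant 1 is 2534 bases long and variant 3 is 2610 bases long, both over the same span of the genome. For Crhr2 the split followed the start site, since variants 1 and 2 start upstream, at position 55133016 of chromosome 6, and variants 3 and 4 start inside the gene at 55117913. Variants from the downstream start took 99.4%, 6.86% and 95.8% of Crhr2 reads in ethanol 1, ethanol 2 and ethanol 3, with exact 95% intervals of 97.8% to 99.9%, 3.59% to 11.7% and 92.2% to 98.1%. In control 1, control 2 and control 3 they took 16.0%, 0% and 7.27%, with exact intervals of 10.8% to 22.6%, 0% to 2.00% and 3.19% to 13.8%. In these estimates ethanol 1 and ethanol 3 stood apart from the other 4 libraries, and ethanol 2 lay inside the range of the controls. The intervals treat estimated reads as independent counts and do not cover error in assigning reads to variants. Tested alone, variant 3 of Crhr2 had a log2 fold change of 5.54 (SE 2.05, unadjusted p = 0.037, edgeR adjusted p = 0.75) and variant 1 one of -1.33 (SE 2.20, edgeR adjusted p = 0.93). Of the 22527 transcripts tested, 0 passed. Differences of this kind were common in the table, where 41.3% of 4517 genes with several transcripts and at least 100 reads in every library did not keep the same leading transcript in all 6.

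The upstream variants 1 and 2 of Crhr2 differ in the coding region by 3 bases at the edge of 1 exon, which is 110 bases long in variant 1 and 107 in variant 2. Sequences from the GENCODE M21 transcripts matched to these variants (GRCm38, chromosome 6, minus strand) are shown with 24 bases on each side, since the estimates set them apart: 0, 162 and 0 reads in ethanol libraries and 136, 183 and 102 reads in control libraries went to variant 1, and at most 9 reads in any library to variant 2. Capitals mark 1 placement of the 3 inserted bases. Taking out GCA or CAG, which start 1 or 2 bases further on, gives the same variant 2 sequence. The capitals therefore need not be the bases at the exon edge.
Crhr2 variant 1: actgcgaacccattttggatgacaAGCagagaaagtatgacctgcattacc
Crhr2 variant 2: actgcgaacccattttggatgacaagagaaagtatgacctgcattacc

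Of the corticosteroid genes, Fkbp5 was the 1 tested gene whose groups did not overlap. Its product is a co-chaperone that lowers the hormone affinity of the glucocorticoid receptor, and its transcription is raised by that receptor. It had 40.3, 41.1 and 35.2 CPM in ethanol libraries, against 33.4, 32.7 and 24.0 CPM in control libraries. All 3 ethanol libraries lay above all 3 controls. Means were 38.9 ± 3.23 CPM in ethanol and 30.0 ± 5.22 CPM in control (SD, n = 3 each), and the fitted log2 fold change was 0.37 (SE 0.18, edgeR adjusted p = 0.49) with a 95% interval of -0.03 to 0.77. It was 0.23 without control 3 (edgeR adjusted p = 0.93), and 0.32 to 0.46 when any other library was left out. Among all tested genes, 9.35% had every ethanol library above every control, 8.41% had every ethanol library below, and 17.8% were apart in either direction, so 1 of 9 genes above and 0 below is near the background. Fkbp5 lies at chr17:28398753-28486149, which overlaps the noncoding gene Gm22146 in RefSeq.

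Nr3c2, the mineralocorticoid receptor gene, had the largest log2 fold change of the 9 tested genes. It had 18.7, 6.70 and 15.6 CPM in ethanol libraries, against 9.62, 9.28 and 5.25 CPM in control libraries. Ethanol 1 and ethanol 3 lay above all controls, and ethanol 2 lay among the controls. The log2 fold change was 0.76 (SE 0.37, edgeR adjusted p = 0.49) with a 95% interval of -0.07 to 1.60, and the value depended on single libraries. It was 1.07 without ethanol 2 (edgeR adjusted p = 0.075) and 0.47 without ethanol 1 (edgeR adjusted p = 0.91), with 0.52 to 0.91 when any of the other 4 was left out. Markers of septum and basal forebrain, 7 of 8 of which had higher values in ethanol and none of which was at 0, summed to 395, 238 and 343 CPM in ethanol libraries, against 298, 269 and 283 CPM in control libraries. Dlk1 carried much of that sum, and without it the other 7 summed to 128, 126 and 164 CPM in ethanol libraries and 117, 115 and 130 CPM in control libraries, so ethanol 2 was then above 2 of the 3 controls. The part of these markers in Nr3c2 was not tested. The Nr3c2 transcript lies at chr8:76902508-77243639, and its wider RefSeq span, chr8:76898083-77245012, overlaps the RefSeq genes Gm10649, Gm24838 and Gm23260. Whether these share exon bases with Nr3c2 was not checked. Where they do, reads cannot be told apart without strand.

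Nr3c1, the glucocorticoid receptor gene, had 46.5, 43.7 and 72.7 CPM in ethanol libraries, against 55.5, 66.9 and 60.5 CPM in control libraries. The ethanol libraries spread widely, with ethanol 1 and ethanol 2 below and ethanol 3 above all controls. The log2 fold change was -0.17 (SE 0.22, edgeR adjusted p = 0.80) with a 95% interval of -0.65 to 0.32, and its size depended on each ethanol library and on control 2. It was -0.07 without ethanol 1, -0.04 without ethanol 2, -0.43 without ethanol 3 (edgeR adjusted p = 0.98, 0.92 and 0.27) and -0.09 without control 2.

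Hsd11b1 had 28.5, 21.4 and 17.9 CPM in ethanol libraries, against 23.5, 29.2 and 26.2 CPM in control libraries. Ethanol 2 and ethanol 3 lay below all controls and ethanol 1 lay among them. The log2 fold change was -0.22 (SE 0.20, edgeR adjusted p = 0.71) with a 95% interval of -0.67 to 0.24. It was -0.42 without ethanol 1, -0.07 without ethanol 3 and -0.13 without control 2 (edgeR adjusted p = 0.90, 0.89 and 0.90). Nearly all of its reads were on variant 2, which starts at 193242360 of chromosome 1. Variant 1, with the upstream start at 193264045, had 17, 4 and 14 estimated reads in ethanol libraries and 0 in each control. Variant 1 did not pass the filter on low counts, and the share of all transcripts with this pattern was not counted. Meningeal fibroblast markers, 10 of 10 of which had lower values in ethanol, summed to 47.5 to 55.7 CPM in ethanol libraries and 62.6 to 110 CPM in control libraries, with none at 0, and their part in Hsd11b1 was not tested.

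**Figure D4:**
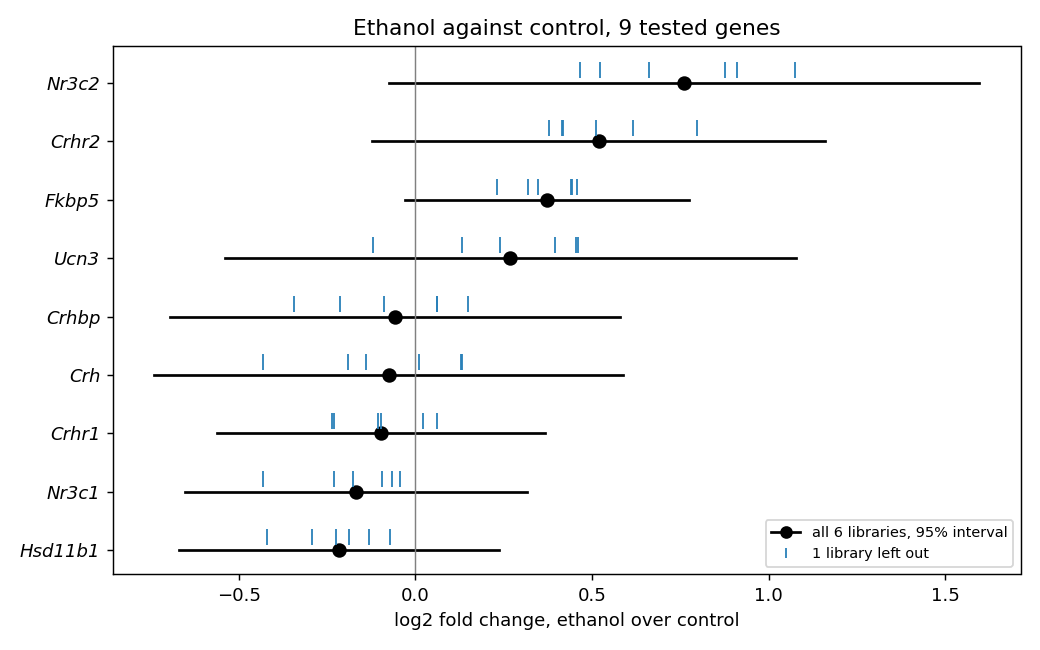
Log2 fold change of ethanol over control for the 9 tested genes, with black points and 95% intervals for all 6 libraries and blue ticks for the fits with 1 library left out. Every interval includes 0, and the ticks of Crh, Ucn3, Crhr1 and Crhbp lie on both sides of 0.

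Over the whole table, edgeR called 0% of 15774 genes at an adjusted p under 0.05, and none of the 9 tested genes. The unadjusted p was under 0.05 for 1681 genes (10.7%, with 5.31% higher in ethanol), and for none of the 9, whose smallest unadjusted edgeR p was 0.066 for Fkbp5. Those 1681 genes were 838 higher and 843 lower in ethanol, and the split was 455 higher and 1064 lower when libraries were scaled by total counts alone. DESeq2 called 144 genes (0.913%), and limma-voom 0%, with none of the 9 among the calls of either. Leaving out ethanol 2 brought the edgeR calls to 211, none of them among the 9, of which 201 were higher and 10 lower in ethanol, and leaving out control 1 brought them to 1. The 9 genes had 4 higher and 5 lower values in ethanol and the median of their log2 fold changes was -0.06, against a median of 0.02 over all tested genes. The direction held in all alternatives run for Nr3c1, Nr3c2, Fkbp5 and Hsd11b1, and for Crhr2 in all but variant 1 alone. Every interval included 0, which does not show that the levels were alike: the interval of Nr3c2 reached 1.60 and that of Fkbp5 reached 0.77.

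Ratios within a library do not depend on how libraries were scaled, and 4 were compared by exact two-sided permutation tests, for which 3 against 3 libraries allow no p below 0.10. The FPKM ratio of Nr3c1 to Nr3c2, the balance between the glucocorticoid and mineralocorticoid receptor genes, was 1.61, 4.22 and 3.02 in ethanol libraries, against 3.73, 4.67 and 7.48 in control libraries. It was lower in ethanol by 0.89 on the log2 scale on average (difference -0.89, exact p = 0.20, 0.40 adjusted over the 4 ratios), with ethanol 2 inside the control range. With 1 library left out the difference ran from -1.20 (without ethanol 2) to -0.50 (without ethanol 1). The ratio of Fkbp5 to Nr3c1 was 1.41, 1.53 and 0.79 in ethanol libraries, against 0.98, 0.80 and 0.65 in control libraries (log2 difference 0.59, exact p = 0.30, 0.40 adjusted). That difference was 0.89 without ethanol 3 and 0.41 without ethanol 2. The ratio of Crhr1 to Crhr2 was 4.81, 4.98 and 3.04 in ethanol libraries, against 9.84, 3.79 and 7.67 in control libraries (log2 difference -0.66, exact p = 0.30, 0.40 adjusted). Crhr1 exceeded Crhr2 in every library, and the difference was -1.06 without control 2, -0.37 without control 1 and -0.43 without ethanol 3. The ratio of Crhbp to Crh, binding protein over ligand, ran from 0.35 to 1.20 in ethanol libraries and from 0.52 to 0.70 in control libraries (log2 difference 0.04, exact p = 1).

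**Figure D5:**
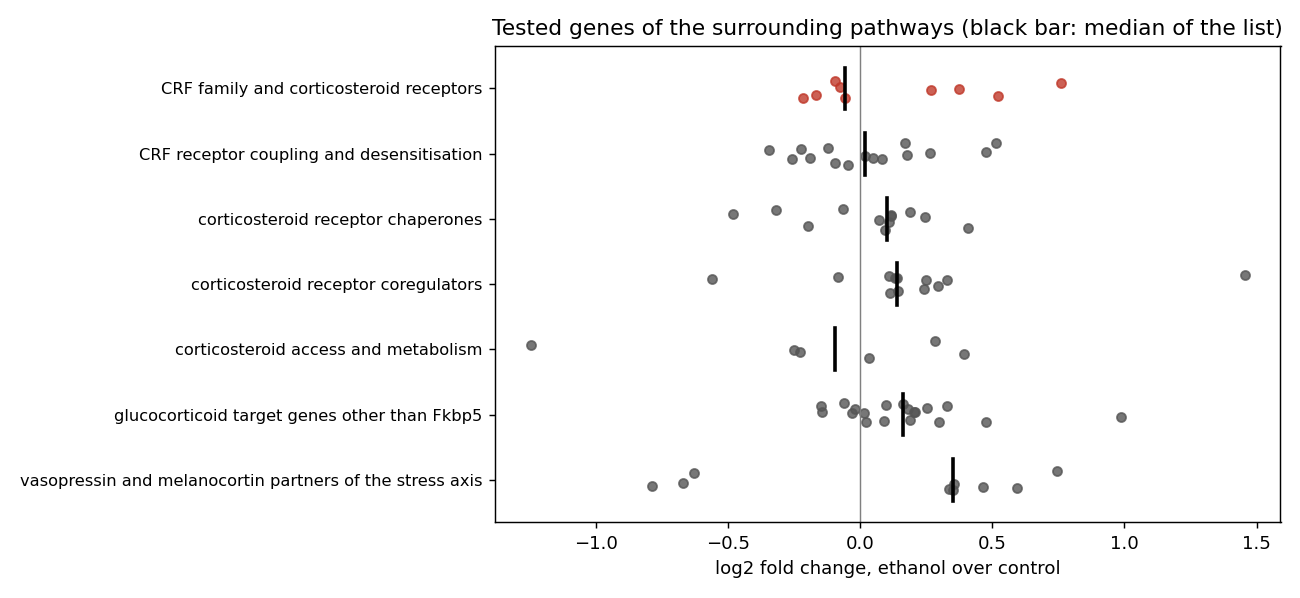
Log2 fold change of ethanol over control for the 9 tested genes (red) and for the tested genes of 6 surrounding lists (grey), with a black bar at each median. Medians run from -0.10 to 0.35 and no gene shown passed an adjusted p of 0.05.

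The surrounding pathway was read from lists of related genes. Over all 15774 tested genes, 8312 had higher and 7462 lower values in ethanol, with a median log2 fold change of 0.02. Of 12 chaperones and co-chaperones of the corticosteroid receptors, 8 had higher and 4 lower values in ethanol, the median of their log2 fold changes was 0.10, and 0 passed. The heat shock gene Dnajb1 averaged 89.6 ± 13.4 CPM in ethanol and 67.5 ± 4.16 CPM in control (SD, n = 3 each; edgeR adjusted p = 0.45), and Ptges3, the gene of the co-chaperone p23, averaged 86.5 ± 23.3 CPM in ethanol and 121 ± 16.5 CPM in control (edgeR adjusted p = 0.48). Of 12 coregulators, 10 had higher and 2 lower values, the median was 0.14 and 0 passed. Their summed level spread more widely in ethanol libraries (617 to 1092 CPM) than in control libraries (788 to 867 CPM). The corepressor gene Nrip1 was at a log2 fold change of 1.46 (edgeR adjusted p = 0.45). It had 9.93, 1.85 and 10.6 CPM in ethanol libraries, against 3.00, 3.40 and 1.75 CPM in control libraries. The coactivator gene Ncoa3 was at -0.56 (edgeR adjusted p = 0.47). All 3 ethanol libraries of Ncoa3 lay below all controls, as for 8.41% of all tested genes.

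Of 20 glucocorticoid target genes other than Fkbp5, 19 were tested, 14 had higher and 5 lower values, the median was 0.16 and 0 passed. Sgk1, a kinase gene, averaged 55.9 ± 2.07 CPM in ethanol and 44.5 ± 6.84 CPM in control (SD, n = 3 each; edgeR adjusted p = 0.50). Its ethanol libraries all lay above all controls, as for 2 of the 19 genes of this list and 9.35% of all tested genes. Zbtb16, a transcription factor gene, had 8.27, 1.68 and 6.95 CPM in ethanol libraries, against 3.51, 3.04 and 1.97 CPM in control libraries (edgeR adjusted p = 0.51). Its ethanol 1 and ethanol 3 libraries were high and its ethanol 2 library low, as for Nr3c2. This was not particular to these genes. The coregulator gene Crebbp had 40.0, 8.11 and 35.1 CPM in ethanol libraries, and the endothelial marker Flt1 had 37.1, 13.7 and 35.1 CPM. The share of all tested genes with this order was not counted. Of 15 genes of CRF receptor coupling and desensitisation, 8 had higher and 7 lower values (median 0.02) and 0 passed. The arrestin gene Arrb1 and Rapgef2, a Rap exchange factor gene, had log2 fold changes of 0.48 and 0.51 (edgeR adjusted p = 0.47 and 0.48).

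Genes that govern access of steroid to the receptors gave 3 higher and 3 lower values among 6 tested of 10, with a median of -0.10 and 0 passing. Akr1c14, a hydroxysteroid dehydrogenase gene, was at -1.25 on the log2 scale and Cyp7b1, an oxysterol hydroxylase gene, was at 0.39 (edgeR adjusted p = 0.45 and 0.51). Hsd11b2, whose product inactivates corticosterone, averaged 0.04 CPM in ethanol and 0.03 CPM in control and was not tested. Among vasopressin and melanocortin partners of the stress axis, 6 of 9 tested genes had higher values, the median was 0.35 and 0 passed. The 3 with lower values were the peptide genes Avp, Oxt and Pomc. Their log2 fold changes were -0.63, -0.79 and -0.67 (edgeR adjusted p = 0.60, 0.59 and 0.57). The oxytocin receptor gene Oxtr had 9.62, 7.67 and 9.23 CPM in ethanol libraries, against 5.54, 5.20 and 5.09 CPM in control libraries (edgeR adjusted p = 0.42), and Pcsk2, a prohormone convertase gene, was at a log2 fold change of 0.36 (edgeR adjusted p = 0.48). Both had all ethanol libraries above all controls, 2 of the 9 tested genes of this list, against 9.35% of all tested genes.

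The profile of each tested gene over the 6 libraries was also set against all other tested genes by the root-mean-square difference of centred log2 CPM. Nr3c2, whose own spread was 0.63, was most like Sntb2 (0.083), Lingo4 (0.10) and Dlgap2 (0.10), and only 1 gene lay within 0.1. That limit was not scaled to a gene's spread, so counts of genes with unlike spread cannot be compared. Fkbp5, with a spread of 0.26, was most like Map2k1 (0.043), Ttc39c (0.044) and Kcna5 (0.050), with 47 genes within 0.1. Nr3c1, also with a spread of 0.26, was most like Zfp882, Cntn3 and Pdzd8 (0.038 to 0.043, 58 genes within 0.1). Hsd11b1 was most like Nipal4, Nfkb2 and Prr5l, and Crhr1 like Ephx3, Sema6c and Hepacam2. Crhr2 was most like Bbox1 (0.082), Zxdb (0.087) and Ednrb (0.098). For Crh the nearest were Cftr, 4930579K19Rik and A330069E16Rik at 0.10 to 0.11, for Crhbp they were Smad6, Tmem266 and Hcrtr1 at 0.11 to 0.14, and for Ucn3 they were Ppil6, Rgn and Cdh9 at 0.14 to 0.15. No other tested gene lay within 0.1 of these 3 profiles.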

How the data were processed

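The authors deposited 1 table with, per RefSeq transcript, an estimated count of reads and an FPKM value for each of 6 libraries, per the file headers. Alignment and counting tools were not given in the sources used here, where mm10 and bcl2fastq are named by the submitters' processing notes. The authors' counts are estimated counts: 100% of those from 20 to 2000 reads equalled, within 0.05 reads, FPKM times transcript length times 1 factor per library, rounded up. Whether strand was used was not stated. Deposited FPKM were summed over the transcripts of a gene for levels and ratios.

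Estimated counts (36780 transcripts) were summed to 24532 genes. After filterByExpr (minimum count 10), 15774 were tested with the quasi-likelihood test of edgeR 4.0.16 (TMM, group as the only term, R 4.3.3), with Benjamini-Hochberg adjustment and a threshold of 0.05. Tests were two-sided, and the code was tested on simulated data. The SE is the size of the log2 fold change over the square root of F. DESeq2 1.42.0, limma-voom (limma 3.58.1), other scalings and filters, single transcripts, a replicate block and left-out libraries were alternatives. Members and lists were chosen with earlier results of these data known. All members are named, with the 2 smallest p of each pathway list and the 3 most alike genes of each member; further genes beside them are markers or were chosen after their values were seen. Python 3.11.15 with matplotlib 3.10.9 was used for figures and sequence searches.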

Additional observations from a re-analysis of the deposited data

How the results depend on the processing

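The count of genes called was 0 with edgeR under each other scaling and filter, 0 with limma-voom and with the replicate block, and was 144 with DESeq2. Leaving out 1 library gave 0 to 211 calls: 201 higher and 10 lower without ethanol 2, 1 higher without control 1, and 0 without each of the other 4. Of 132 alternative values for the 10 genes, 120 kept direction and side of the threshold, 11 turned direction and 1, Ucn with DESeq2 and no low-count filter, passed. With 1 library left out, log2 fold changes ran from -0.43 to 0.13 for Crh, from -0.12 to 0.46 for Ucn3, from -0.24 to 0.060 for Crhr1 and from -0.34 to 0.15 for Crhbp. The ranges of Crhr2 (0.38 to 0.80), Nr3c1 (-0.43 to -0.04), Nr3c2 (0.47 to 1.07), Fkbp5 (0.23 to 0.46) and Hsd11b1 (-0.42 to -0.07) kept their sign. Single variants gave 0.36 for Crhr1 variant 1, -1.33 for Crhr2 variant 1 and 5.54 for Crhr2 variant 3. The log2 ratio difference of Crhbp to Crh ran from -0.43 to 0.46, and the other 3 kept their sign, from -1.20 to -0.50 for Nr3c1 to Nr3c2, from -1.06 to -0.37 for Crhr1 to Crhr2 and from 0.41 to 0.89 for Fkbp5 to Nr3c1. The cause of these turns was not tested. Deviations of same-numbered libraries correlated at 0.15, -0.03 and -0.02. Ethanol 1 correlated best with its own number, and ethanol 2 and ethanol 3 with other numbers. The replicate block left 0 calls, as did the main fit. Deviations from group means of 3 libraries are too few to decide whether replicate numbers mark pairs. Depth sets the floor of 3 reads. The deepest library, ethanol 1, listed Ucn at 0 reads and the shallowest, control 3, at 6. The part of depth in the Ucn values was not tested. Marker sums without each list's leading gene were added after seeing the data.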
